A study of Mus musculus with 32 samples.

Results

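Dimethyl sulfoxide (DMSO) at 1% was applied to mouse embryonic stem (ES) cells of the line E14TG2a, and RNA was taken on days 2, 4 and 6 of treatment. Each day was measured on 2 two-colour arrays with opposite dye orientation, always against untreated E14 cells, so that 6 of the 32 arrays of the study are DMSO arrays. They were chosen by their titles, and the log ratios of the 3 days were averaged and tested against 0 with the dye orientation as a term. The study used the same layout for 0.1 µM retinoic acid (RA, 6 arrays) and 3 mM hexamethylene bisacetamide (HMBA, 6 arrays). A further 14 one-colour Affymetrix arrays compared ES cells carrying a short hairpin plasmid against Pou5f1 (4 arrays) or Nanog (5 arrays) with cells carrying the empty pSUPER vector (5 arrays), after 3 days of selection in 1 µg/ml puromycin. E14TG2a is an established mouse ES cell line, so each ratio compares treated and untreated cells of 1 line. The culture medium, whether leukaemia inhibitory factor (LIF) was present during treatment, and the culture day of the untreated cells are not given in the sources used here. The labels call the arrays of a day dye-swapped replicates and do not say whether they came from separate cultures, so the p-values below measure the spread between these arrays, which may be technical, and leave out the spread of untreated cultures.

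ES cells are held in a self-renewing state by a circuit of transcription factors. Pou5f1 (Oct4) and Sox2 bind DNA as a pair, Nanog works with them, and LIF, through STAT3, keeps Klf4, Tfcp2l1 and other naive factors on. When ES cells leave this state they first lose the naive factors and switch on genes of the early post-implantation epiblast, such as Fgf5, Otx2 and Dnmt3b, before lineage genes appear. DMSO is a polar solvent long used to induce differentiation in embryonal carcinoma and erythroleukaemia cells, and HMBA, another polar compound, is a classical inducer of erythroleukaemia cells.

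The promoters of 6 genes from groups that moved are shown because each holds a short motif named for the factors discussed below. The sequences run 5′ to 3′ on the strand of the gene, from 250 bases before to 50 bases after the start site, and come from RefSeq (GRCm38.p6). Capitals mark the motif on either strand. Motifs and genes were chosen after the values were seen. The first is the promoter of Zfp42 (chr8:43306960-43307259, minus strand), a naive ES cell gene, with the octamer ATGCAAAT of POU factors read on the opposite strand at -186 from the start site.
Zfp42: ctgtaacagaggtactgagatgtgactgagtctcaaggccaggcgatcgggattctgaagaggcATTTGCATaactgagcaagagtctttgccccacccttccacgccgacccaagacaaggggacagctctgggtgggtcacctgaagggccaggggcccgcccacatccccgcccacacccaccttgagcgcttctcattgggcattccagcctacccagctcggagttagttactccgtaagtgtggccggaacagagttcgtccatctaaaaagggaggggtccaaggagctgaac
The promoters of Hormad1 (chr3:95559427-95559726, plus strand) and Sycp3 (chr10:88459337-88459636, plus strand), which encode proteins of the meiotic chromosome axis, each hold 2 copies of the E-box CACGTG.
Hormad1: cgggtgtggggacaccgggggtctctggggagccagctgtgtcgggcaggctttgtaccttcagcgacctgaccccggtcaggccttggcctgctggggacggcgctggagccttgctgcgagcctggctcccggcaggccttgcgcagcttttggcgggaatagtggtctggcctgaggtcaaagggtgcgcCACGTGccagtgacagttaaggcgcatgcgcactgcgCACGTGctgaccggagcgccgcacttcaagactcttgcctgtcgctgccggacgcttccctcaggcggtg
Sycp3: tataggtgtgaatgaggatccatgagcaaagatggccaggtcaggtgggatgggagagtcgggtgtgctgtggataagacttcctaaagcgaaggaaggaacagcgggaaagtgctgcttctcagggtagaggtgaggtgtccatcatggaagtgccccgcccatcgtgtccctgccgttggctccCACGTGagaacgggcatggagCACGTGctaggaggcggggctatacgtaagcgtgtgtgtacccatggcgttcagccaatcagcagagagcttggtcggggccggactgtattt
The promoters of Ccn1 (chr3:145649936-145650235, minus strand), a secreted matricellular protein, and Amotl2 (chr9:102717554-102717853, plus strand), an angiomotin that binds YAP, each hold 1 copy of GGAATG, the core bound by TEAD factors.
Ccn1: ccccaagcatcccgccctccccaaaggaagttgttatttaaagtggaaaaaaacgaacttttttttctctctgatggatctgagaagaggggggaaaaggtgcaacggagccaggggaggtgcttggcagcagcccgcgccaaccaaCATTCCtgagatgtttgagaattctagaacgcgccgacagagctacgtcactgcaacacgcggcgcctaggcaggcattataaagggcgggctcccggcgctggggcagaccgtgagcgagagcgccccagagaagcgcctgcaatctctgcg
Amotl2: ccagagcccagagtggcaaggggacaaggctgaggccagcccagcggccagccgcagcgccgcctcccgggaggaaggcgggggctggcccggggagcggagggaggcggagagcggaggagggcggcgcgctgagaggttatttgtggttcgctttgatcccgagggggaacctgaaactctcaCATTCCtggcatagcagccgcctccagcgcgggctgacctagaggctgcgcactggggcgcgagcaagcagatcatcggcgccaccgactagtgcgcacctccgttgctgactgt
The promoter of Irf1 (chr11:53769764-53770063, plus strand), an interferon-induced transcription factor, holds 1 copy of TTCNNNGAA, the element bound by STAT dimers.
Irf1: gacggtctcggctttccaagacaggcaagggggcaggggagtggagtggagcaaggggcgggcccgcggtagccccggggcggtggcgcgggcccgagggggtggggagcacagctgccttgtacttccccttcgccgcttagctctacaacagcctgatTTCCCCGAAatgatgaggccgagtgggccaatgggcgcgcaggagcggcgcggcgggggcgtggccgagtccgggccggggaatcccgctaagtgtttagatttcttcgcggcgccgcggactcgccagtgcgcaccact

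A match is a description of these letters and not a bound site. E-boxes were found in the promoters of 4 of 10 germ line and 2-cell genes that fell and had a promoter in the table, in 6 of all 14 measured members with one, and in 9.49% of the 9420 tested genes with one. The TEAD core stood in 4 of 11 cytoskeletal and YAP-related genes that rose, in 1 of 2 that fell, in 9 of all 20 measured, and in 13% of tested genes. Neither motif was thus more frequent in the genes that moved than in the whole list. The octamer stood in 1 of 16 pluripotency genes that fell, 1 of 18 measured, and 1.4% of tested genes. The STAT element stood in 2 of 5 interferon-related genes that rose, 5 of 14 measured, in 1 of 7 LIF and STAT3 genes that fell, 1 of 13 measured, and in 7.13% of tested genes. Of the 618 measured list members, 481 had a promoter in the table.

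DMSO moved a large part of the transcriptome, of a size that depended on the dye term and on the error used. Of 16640 probes with values in every treatment and day, 6838 (41.1%) passed an adjusted p of 0.05 in limma for the mean of the 3 days, with 3781 higher (22.7%) and 3057 lower (18.4%), and 570 of them moved by at least 1 on the log2 scale (269 higher, 301 lower). Counted by gene, with 1 probe for each of 12024 genes, 2997 rose (24.9%) and 2420 fell (20.1%). The dye orientation itself passed for 11124 of the 16640 probes (66.9%). With it left out of the fit, 2834 of 16657 probes passed for the mean. Of probes called higher with 6 DMSO values 40.2% had 1 sign on all 6 arrays. Of those called lower 39.2% did, and of all tested 20.6%. In a stricter fit, where the 2 arrays of a day were averaged and the error came from the spread between days, 2866 of 10763 probes (26.6%) passed. Of the same 10763 probes 5461 passed with the spread between arrays. By gene 14.7% rose and 13.2% fell in the stricter fit. These shares, and 24.9% and 20.1% in the main fit, are those of all genes, beside which the list counts below stand. The array of day 4 with the sample in Cy5 stood apart, with 11257 values against 16340 to 20019 on the other DMSO arrays, and a spread (SD of log ratios) of 0.787 against 0.433 to 0.628. Over all probes the 2 arrays of a day correlated at -0.01 on day 2, 0.16 on day 4 and 0.66 on day 6. All log ratios below are DMSO over untreated cells, in log2 units, as the mean of 6 arrays ± SE of the fit unless stated. That SE came from the fit of all 18 ratio arrays, with differences between days and dyes taken out. It is not the spread of the 6 values. For Sox2 it was 0.09, while the SD over the 6 arrays was 1.17 and the SE from the spread between days 0.30. No source names the log base, which was assumed to be 2. Ratio arrays give no level, and fewer cells of a type and less RNA per cell cannot be told apart in them. Levels come from the vector arrays, where the 11 ES cell markers stood at 9.30 to 13.39 (log2), while 9 fibroblast markers stood at 3.38 to 7.88, 6 primitive endoderm markers at 4.42 to 8.49 and 4 trophectoderm markers at 4.16 to 6.12.

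Most genes of the naive ES cell programme fell. Of 27 measured pluripotency genes (33 listed), 25 fell and none rose, with a median of -1.83, while 20.1% of all genes fell and their median was 0.03. On day 2 already 20 were lower, where 4.98% of all probes were, and 25 were lower on day 4 and on day 6, where 11.6% and 14.3% were. In the stricter fit 17 of the 23 that could be tested fell, against 13.2% of all genes, while 14.7% of all genes rose in it. Zfp42 (Rex1), a zinc finger protein and classical marker of naive cells, had log ratios of -2.11 and -3.40 on day 2, -3.79 and -4.93 on day 4, and -4.09 and -5.05 on day 6. All 6 arrays lay far below 0, and the day 2 arrays were the least reduced. Its mean was -3.89 ± 0.08, a 14.9-fold fall (adjusted p 2e-16, and 1e-04 with the spread between days). Klf4, a Krüppel-like factor that STAT3 induces, had -2.61 and -3.55 on day 2, -3.32 and -4.88 on day 4, and -3.36 and -4.12 on day 6, with no overlap with 0 on any day. Its mean was -3.64 ± 0.11 (12.5-fold lower).

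Most other naive genes were lower in the mean over days as well. Dppa5a, an RNA-binding protein of early embryo cells, fell by 3.68 ± 0.07 on the log2 scale, and Fbxo15, an F-box protein and early target of Oct4, fell by 3.05 ± 0.07. Nr0b1 (Dax1), an orphan nuclear receptor that binds Oct4 and Nanog, averaged -4.76 ± 0.09, measured on 4 arrays. Nr5a2 and Esrrb, nuclear receptors that act on the Pou5f1 and Nanog genes, stood at -2.51 ± 0.10 and -1.99 ± 0.08, with Esrrb on 5 arrays. Fgf4, the growth factor through which ES cells signal to themselves, averaged -2.46 ± 0.09 on 5 arrays, and Tdgf1 (Cripto), the Nodal co-receptor, -2.45 ± 0.08. Klf2, a relative of Klf4, stood at 0.02 ± 0.08 (adjusted p 0.82), while Klf5, another Krüppel-like factor of the naive circuit, averaged -1.83 ± 0.14. Lin28a, an RNA-binding protein that blocks let-7 maturation, stood at 0.36 ± 0.14 on 4 arrays (adjusted p 0.055).

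The core factors Pou5f1, Sox2 and Nanog differed in their course. Nanog was low from the first day, with -2.12 and -1.54 on day 2, -1.72 and -0.92 on day 4, and -1.67 and -1.34 on day 6, all below 0, and a mean of -1.55 ± 0.07 (adjusted p 7.3e-12). Its difference between day 6 and day 2 was 0.33 and did not pass (adjusted p 0.3). Sox2 had -0.40 and -1.59 on day 2, -1.66 and -3.75 on day 4, and -1.44 and -2.77 on day 6, with the Cy5 array lower on each day, and a mean of -1.93 ± 0.09 (adjusted p 2.1e-11). Pou5f1 had 0.15 and 0.33 on day 2, -0.82 and -0.51 on day 4, and -1.22 and -1.66 on day 6. Both day 2 arrays were above 0 and all later ones below, and day 6 minus day 2 was -1.68 ± 0.23 (adjusted p 0.00013). The mean over days, -0.62 ± 0.10, passed with the spread between arrays (adjusted p 3.9e-05) but not with the spread between days (adjusted p 0.27). Utf1, a chromatin protein and target of Oct4 and Sox2, stood at 0.21, -0.87 and -1.53 on days 2, 4 and 6, with its Cy5 arrays well above its Cy3 arrays (0.95 and -0.52 on day 2).

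**Figure D1:**
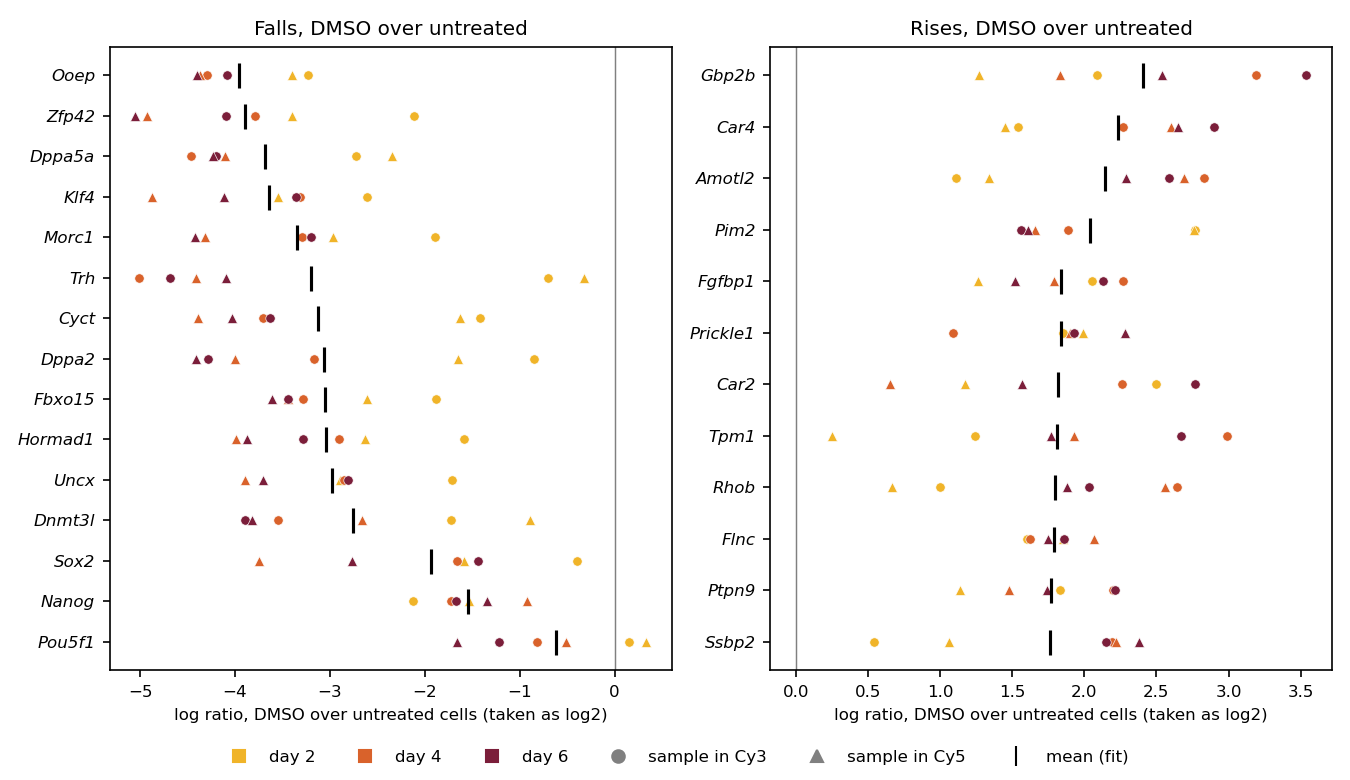
Log ratio of DMSO over untreated cells (horizontal axis, taken as log2) on each of the 6 arrays for the core factors and the genes with the largest falls (left) and rises (right), 1 gene a row, colour for the day, shape for the dye of the sample and a bar for the fitted mean. Pou5f1 is the gene in these rows with day 2 arrays on the other side of 0 from its mean (0.15 and 0.33 against -0.62), and Trh stands at -0.70 and -0.32 on day 2 and at or below -4.10 on later days.

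Among the 12 largest falls outside the pluripotency list were genes of the oocyte and of the germ line. Ooep, a protein of the subcortical maternal complex, had the largest fall among named genes with 1 sign on all 6 arrays, with -3.23 and -3.40 on day 2, -4.30 and -4.37 on day 4, and -4.08 and -4.40 on day 6. The 6 arrays lay within a narrow band far below 0, with day 2 at its upper end, and the mean was -3.96 ± 0.07, a 15.6-fold fall (adjusted p 6e-17). Morc1, an ATPase that silences transposons in male germ cells, fell by 3.35 ± 0.07 on the log2 scale, and Cyct, the testis form of cytochrome c, fell by 3.13 ± 0.08 (its other probe gave -1.44). Trh, which encodes thyrotropin-releasing hormone, had -0.70 and -0.32 on day 2, -5.01 and -4.41 on day 4, and -4.69 and -4.10 on day 6, so that the day 2 arrays stood apart from the later 4. Dppa2, itself a member of the pluripotency list, acts with Dppa4 on genes of early development. It had -0.85 and -1.65 on day 2, -4.28 and -4.41 on day 6, and values between these on day 4. Its day 6 minus day 2 difference was -3.10 (adjusted p 2.4e-08). Uncx, a homeobox factor of somites and neurons, stood at -2.98 ± 0.09. Its level in vector cells was 3.39 (log2), near the lowest of that platform, so that the gene behind this fall is uncertain.

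The germ line and 2-cell list fell with the naive genes. Of 17 measured members 13 fell and none rose, where 20.1% and 24.9% of all genes did, and the median was -0.98. On days 2, 4 and 6, 9, 11 and 14 of them were lower. In the stricter fit 5 of 11 fell. Hormad1 had -1.59 and -2.63 on day 2, -2.90 and -3.99 on day 4, and -3.28 and -3.87 on day 6 (mean -3.04 ± 0.09), below 0 on all 6 arrays. Tex19.1, which protects germ cells and placenta from retrotransposons, fell by 2.57 ± 0.07 on the log2 scale, and Dazl, the RNA-binding protein of germ cells, averaged -2.23 ± 0.08 on 5 arrays. Dppa3 (Stella), which shields maternal methylation in the egg, fell by 2.01 ± 0.08. Sycp3 fell more slowly, with -0.16, -0.83 and -1.74 on days 2, 4 and 6. Tcstv1 and Usp17la, genes of the 2-cell stage, averaged -1.67 ± 0.09 and -1.60 ± 0.11, and both belong to families of near-identical copies that a probe may not tell apart. Ddx4, Tdrd1 and Prdm1, genes of committed germ cells, stood between -0.14 and -0.01 and did not pass.

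Epiblast genes divided into early and falling ones, and some stayed higher to day 6. Of 18 measured members 9 rose and 7 fell over the mean, with a median of 0.24. The counts changed with the day (5.29%, 14% and 16.8% of all probes were higher on days 2, 4 and 6), with 10 higher and 1 lower on day 2, 4 higher and 6 lower on day 4, and 5 higher and 8 lower on day 6. In the stricter fit 3 of 15 rose and 4 fell. Fgf5, the growth factor that marks the post-implantation epiblast, had 2.35 and 1.84 on day 2, 1.92 on the day 4 array that measured it, and 1.40 on that of day 6. All 4 values lay above 0 and were largest on day 2, with a mean of 1.58 ± 0.11 (adjusted p 9.9e-09). Pim2, a serine/threonine kinase that promotes survival, had 2.77 and 2.76 on day 2, 1.89 and 1.66 on day 4, and 1.56 and 1.61 on day 6, with a mean of 2.04 ± 0.08, a 4.12-fold rise. Igfbp3, another member of the list, averaged 1.17 (adjusted p 3.8e-10 in limma). Dnmt3b, the de novo DNA methyltransferase of the epiblast, had 2.29 and 1.72 on day 2, 0.68 and -0.28 on day 4, and -0.18 and -0.95 on day 6. The day 2 arrays were high and the day 6 arrays below 0, and the day 6 minus day 2 difference was -2.57 (adjusted p 5.1e-08). Its mean of 0.55 did not pass with the spread between days (adjusted p 0.36).

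Lef1, a nuclear partner of beta-catenin, had 1.98 and 1.60 on day 2, 0.21 and 0.06 on day 4, and 1.48 and 1.08 on day 6, so that day 4 lay near 0 between 2 high days. Its mean of 1.07 did not pass with the spread between days (adjusted p 0.088). Zic2, a zinc finger factor of the epiblast and neural plate, stood at 0.90 and 0.67 on days 2 and 4 (adjusted p 0.0017 and 0.0071) and at 0.03 on day 6. Otx2, the homeobox factor of anterior epiblast, stood at 0.20 on day 2 (adjusted p 0.5) and at -1.41 on day 6 (adjusted p 5.1e-07). Foxd3, a forkhead factor needed for epiblast and neural crest, was higher on day 2 at 0.75 (adjusted p 0.0037) and lower on day 6 at -1.22 (adjusted p 1.1e-05). Dnmt3l, the catalytically inactive partner of the de novo methyltransferases, went the other way from Dnmt3b on day 2, with -1.72 and -0.89, followed by -3.55 and -2.66 on day 4 and -3.90 and -3.82 on day 6. All 6 values were below 0, and the mean was -2.76 ± 0.08 (6.76-fold lower).

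**Figure D2:**
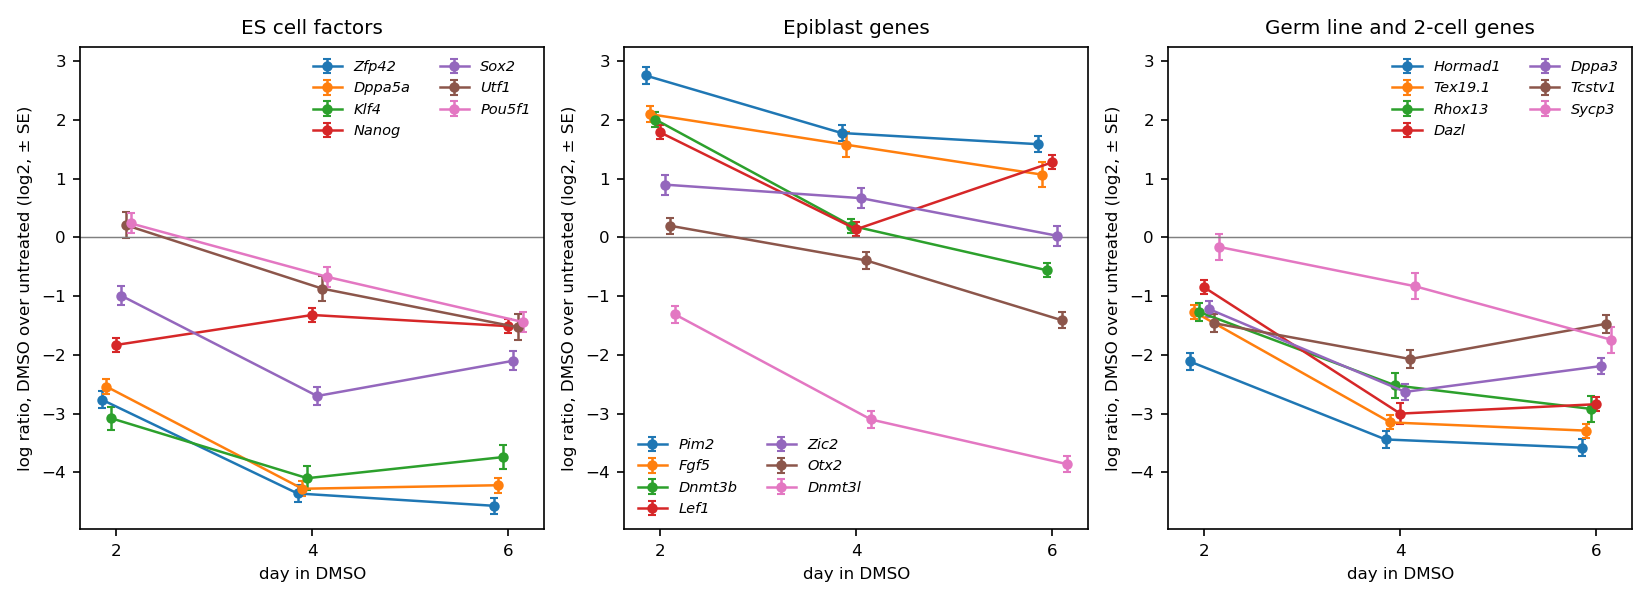
Log ratio of DMSO over untreated cells (vertical axis, log2, fitted value of 2 arrays ± SE) on days 2, 4 and 6 for 7 ES cell factors, 7 epiblast genes and 7 germ line or 2-cell genes. The naive factors are low on day 2 and Pou5f1 and Utf1 are not (0.24 and 0.21), while Dnmt3b stands at 2.01 on day 2 and -0.56 on day 6.

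Chromatin genes included several that mark ES cells. Of 25 measured genes of DNA methylation and chromatin 11 fell and 7 rose, where 20.1% and 24.9% of all genes did. In the stricter fit 8 and 2 of 23 did, where 13.2% and 14.7% of all genes did. The share of rises was thus close to that of all genes, and below it in the stricter fit. Tet1, the methylcytosine dioxygenase of ES cells, fell by 2.51 ± 0.07 on the log2 scale and stood between -2.69 and -2.28 on the 3 days. Eed, a core subunit of Polycomb repressive complex 2, fell by 1.71 ± 0.07, and the histone demethylases Kdm5b and Kdm3a fell by 1.22 ± 0.07 and 1.23 ± 0.09. Ezh2, the catalytic subunit of the same complex as Eed, stood at 0.11 ± 0.07 (adjusted p 0.22), and Dnmt1, the maintenance methyltransferase, at -0.15 ± 0.10 (adjusted p 0.24). Ring1 and Smarca4, a Polycomb ubiquitin ligase and the ATPase of the BAF complex, rose by 0.61 ± 0.08 and 0.55 ± 0.08.

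Targets of LIF and STAT3 were lower from day 2 on. Of 15 measured members of the pathway list 9 fell and 2 rose, where 20.1% and 24.9% of all genes did, and the median was -0.67. On day 2 8 were lower, where 4.98% of all probes were. In the stricter fit 5 of 11 fell and 1 rose, where 13.2% and 14.7% of all genes did. Socs3, the feedback inhibitor that STAT3 induces, had -1.44 and -1.56 on day 2, -1.23 and -1.07 on day 4, and -1.06 and -0.87 on day 6, all below 0 (mean -1.21 ± 0.07, adjusted p 4e-10). Bcl3, an IκB family protein, had -2.16 and -1.85, -2.08 and -1.45, and -1.52 and -1.54 on the 3 days. Stat3 itself was lower on day 2 at -1.02 (adjusted p 2.8e-05), and stood at -0.35 and -0.13 on days 4 and 6, which did not pass. Socs2, an inhibitor of growth hormone signalling, ran the other way in time, at 0.47, -1.38 and -1.87. Lifr, the ligand-specific receptor chain, averaged -1.05 ± 0.10 on 5 arrays, while Il6st (gp130), the shared chain, stood at -0.05 ± 0.07 (adjusted p 0.62). Lif averaged 0.50 ± 0.09 on 5 arrays, but its Cy3 arrays stood at -0.07, -0.01 and -0.01 and only the Cy5 arrays, at 0.81 and 1.39, were above 0. The member that rose most, Pim2, is the kinase described with the epiblast genes.

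Cytoskeletal genes and targets of the transcriptional coactivator YAP were among the largest rises. Of 24 measured members 14 rose and 2 fell, where 24.9% and 20.1% of all genes did, and the median was 0.30. In the stricter fit 6 rose and 1 fell of 20, where 14.7% and 13.2% of all genes did. Amotl2 had 1.11 and 1.34 on day 2, 2.83 and 2.69 on day 4, and 2.59 and 2.29 on day 6. All 6 arrays were above 0, the day 2 arrays lowest, and the mean was 2.14 ± 0.10, a 4.41-fold rise (adjusted p 5.3e-12). Ccn1 and Ccn2, matricellular proteins and classical YAP targets, rose by 1.61 ± 0.07 and 0.91 ± 0.09. Tpm1, a tropomyosin of actin filaments, had 1.24 and 0.25, 2.99 and 1.93, and 2.67 and 1.77 on the 3 days, with the Cy5 array lower each time (mean 1.81 ± 0.08). Rhob, a small GTPase of actin and endosome traffic, rose by 1.80 ± 0.07, and Flnc, a filamin that links actin filaments, by 1.79 ± 0.09. Tpm1, Rhob and Flnc are not members of the list counted above and were named for the size of their rise. Flna, the general filamin, fell by 0.52 ± 0.08. Ankrd1, also a YAP target, stood at -0.13 ± 0.08 (adjusted p 0.18).

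The remaining named rises came from varied groups. Gbp2b, a guanylate-binding protein that interferon induces, had 2.09 and 1.27 on day 2, 3.19 and 1.83 on day 4, and 3.54 and 2.54 on day 6, and its mean of 2.41 ± 0.08 was the largest rise (5.32-fold). All 6 arrays were above 0 and the Cy3 array was higher on each day. Car4 and Car2, carbonic anhydrases, rose by 2.23 ± 0.08 and 1.82 ± 0.07. Prickle1, a planar polarity protein, rose by 1.84 ± 0.08, Fgfbp1, a secreted carrier of fibroblast growth factors, by 1.84 ± 0.07, Ptpn9, a tyrosine phosphatase, by 1.77 ± 0.07 and Ssbp2, a partner of LIM-domain transcription complexes, by 1.76 ± 0.07. Of 14 interferon and antigen presentation genes 5 rose and 3 fell, where 24.9% and 20.1% of all genes did (4 and 2 of 11 in the stricter fit). Irf1 and H2-D1, a class I heavy chain, rose by 1.10 ± 0.07 and 1.19 ± 0.07, and Ifitm1 and Ifitm3, transmembrane proteins found in ES and germ cells, fell by 2.25 ± 0.09 and 1.34 ± 0.09.

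Adhesion and junction genes rose, and both the epithelial and the mesenchymal cadherin were among them. Of 24 measured members 17 rose and 1 fell, where 24.9% and 20.1% of all genes did, and the median was 0.49. It was 0.68 after RA and 0.69 after HMBA, so the rise was not particular to DMSO. In the stricter fit 7 and 1 of 17 did, and without the dye term 10 and 1 of 24. Cldn6 and Cldn3, claudins of tight junctions, rose by 1.26 ± 0.10 and 1.12 ± 0.09, Epcam, an epithelial adhesion molecule, by 0.73 ± 0.07 (adjusted p 0.122 without the dye term), and Itgb1, the integrin beta chain, by 0.93 ± 0.09. Cdh1 (E-cadherin) was 0.58 ± 0.08 higher (adjusted p 0.061 with the spread between days) and Cdh2 (N-cadherin) 0.75 ± 0.10 higher, the second on 5 arrays. Cdh1 stood at 1.00, 0.71 and 0.05 on days 2, 4 and 6, while Cdh2 stood at 0.82, 0.11 and 1.33. Snai1 and Snai2, repressors of Cdh1, stood at -0.01 and 0.06 and did not pass. The one fall was Jup (plakoglobin), at -0.47 ± 0.08.

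Lineage genes moved less than naive genes in the lists described here. Of 25 primitive endoderm genes 12 rose and 5 fell, with a median of 0.18 (2 rose of 15 in the stricter fit, and 6 of 25 without the dye term), and 4, 9 and 11 were higher on days 2, 4 and 6. Krt8, a keratin of simple epithelia, rose by 1.36 ± 0.08, and the matrix genes Sparc and Col4a1 by 1.18 ± 0.08 and 0.92 ± 0.09, but Gata4, which directs primitive endoderm, was 0.33 ± 0.09 higher on 5 arrays, and Sox7 and Pdgfra stood at 0.18 and 0.06 and did not pass. Of 18 trophectoderm genes 7 rose and 5 fell (3 and 1 of 9 in the stricter fit). Cdx2, the master factor of trophectoderm, stood at 0.13 ± 0.11 (adjusted p 0.37) and at 0.58 on day 6 (adjusted p 0.012), and Tfap2c, shared by trophectoderm and ES cells, fell by 1.59 ± 0.08. Eomes, a T-box factor of trophectoderm and primitive streak, was higher on day 6 at 1.10 (adjusted p 3.5e-06).

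Of 12 primitive streak and mesoderm genes 6 rose and 1 fell (1 and 0 of 6 in the stricter fit). Fgf8, the growth factor of the streak, had 0.70 and -0.22 on day 2, 0.97 on day 4, and 2.38 and 2.26 on day 6, so that the day 6 arrays stood apart (day 6 minus day 2 2.08, adjusted p 4.6e-06). Bmp4, which induces mesoderm, averaged -0.98 ± 0.10 on 5 arrays. Of 25 muscle and heart genes 5 rose and 1 fell, no larger a share of rises than the 24.9% of all genes (2 and 0 of 14 in the stricter fit). The 5 were Tpm1, Tpm2, Actc1, Ttn and Gata4, while Nkx2-5, the cardiac homeobox factor, stood at 0.13 ± 0.08 (adjusted p 0.18), Myod1, which directs skeletal muscle, at -0.05 ± 0.11 (adjusted p 0.74), and Myh6, the atrial myosin heavy chain, at -0.10 ± 0.09 (adjusted p 0.41). Of 10 erythroid genes 1 rose and 1 fell. Zfpm1, the cofactor of GATA1, rose by 0.66 ± 0.08, Alas2, the first enzyme of haem synthesis in red cells, was -0.24 ± 0.09 on 5 arrays (adjusted p 0.504 without the dye term), and the globin Hba-a1 stood at -0.04 ± 0.09 (adjusted p 0.75).

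Of 19 neural genes 4 rose and 8 fell (1 and 2 of 11 in the stricter fit). Nes, the intermediate filament of neural progenitors, rose by 0.90 ± 0.10 (adjusted p 0.077 with the spread between days), and Pax6, a homeobox factor of neural and eye tissue, fell by 0.86 ± 0.08. Gbx2, which ES cells express as a STAT3 target, averaged -1.86 ± 0.08 on 5 arrays. Among fibroblast and smooth muscle genes 12 of 21 rose and 3 fell (3 and 1 of 14 in the stricter fit), led by Tpm1 and by Col1a2, a chain of type I collagen, at 1.46 ± 0.10 on 5 arrays. Of the 7 fibroblast defining markers on the ratio arrays 3 rose and 1 fell, and Thy1 and Col3a1 stood at -0.12 and -0.14 and did not pass. The part of feeder or fibroblast cells in these values was not tested.

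**Figure D3:**
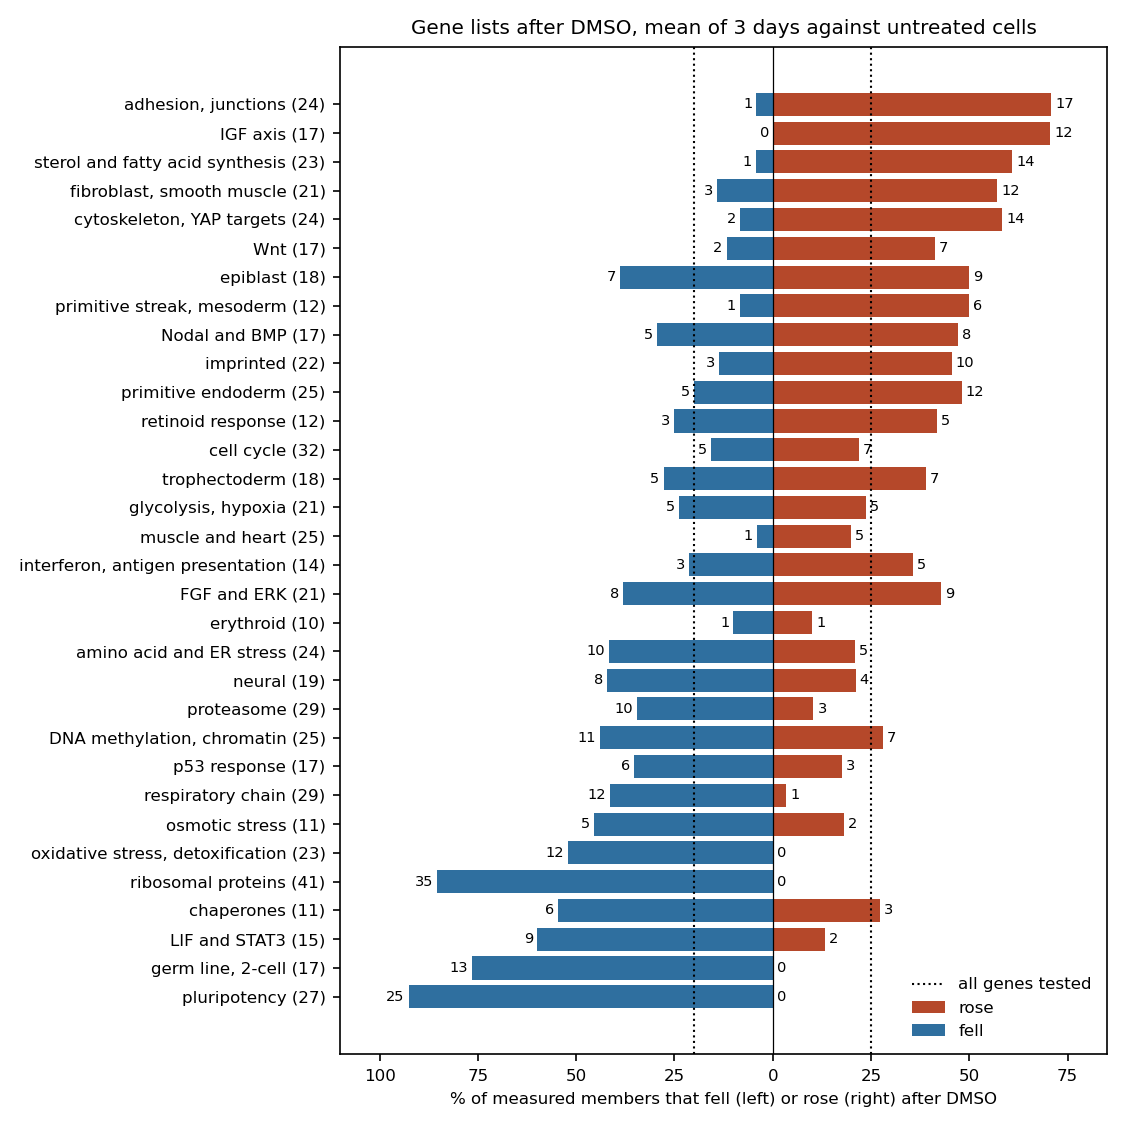
Share of the measured members of each gene list (number in brackets) that fell (left) or rose (right) in the mean of 3 days of DMSO against untreated cells, in percent, with counts at the bars and dotted lines at the shares over all 12024 genes (20.1% and 24.9%). Pluripotency, germ line and ribosomal protein lists reach furthest to the left, and adhesion, insulin-like growth factor and sterol lists furthest to the right.

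Several signalling genes were highest on day 6. Of 17 genes of the insulin-like growth factor (IGF) axis 12 rose and none fell, where 24.9% and 20.1% of all genes did. Their median was 0.46 (0.63 after RA and 0.47 after HMBA), and 4 of 11 rose in the stricter fit. Igf1r, the receptor, had 0.20 and 0.54 on day 2, 1.92 and 2.37 on day 4, and 2.13 and 2.44 on day 6, with day 2 clearly below the later arrays (mean 1.60 ± 0.08). Irs2, an adaptor of the receptor, averaged 1.86 ± 0.09 on 5 arrays, and Hmga2, a chromatin protein that raises Igf2bp2, rose by 1.15 ± 0.09 (adjusted p 0.075 with the spread between days). Igf2 itself stood at 0.00 ± 0.07 (adjusted p 0.99). In the Wnt list 7 of 17 rose and 2 fell, where 24.9% and 20.1% of all genes did (4 and 0 of 10 in the stricter fit). Axin2 and Sp5, direct targets of the pathway, stood at 1.62 and 1.83 on day 6 (adjusted p 4.4e-08 and 1.3e-07). The 3-day mean of Sp5 did not pass with the spread between days (adjusted p 0.15). In the Nodal and BMP list 8 of 17 rose and 5 fell (2 and 2 of 13 in the stricter fit). Id1 and Id3, inhibitors of basic helix-loop-helix factors and targets of BMP signals, rose by 0.68 ± 0.07 and 0.93 ± 0.07 (adjusted p 0.17 and 0.073 with the spread between days). Id2 had -0.13 and -1.24 on day 2, 0.52 and -1.19 on day 4, and 2.48 and 1.16 on day 6, with both day 6 arrays above all others.

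Retinoid and imprinted genes were among the rises as well. Of 12 retinoid genes 5 rose and 3 fell, where 24.9% and 20.1% of all genes did (2 and 1 of 9 in the stricter fit, where 14.7% and 13.2% did). Rarb, the retinoic acid receptor that RA itself induces, had -0.03 and 1.74 on day 2, 0.44 and 2.84 on day 4, and 1.21 and 1.92 on day 6, with the Cy5 array higher each time and a mean of 1.35 ± 0.12. Its other probe gave 0.04. Crabp2, a carrier of RA, averaged 1.32 ± 0.15 on 5 arrays, and Meis1, a homeobox partner of Hox proteins, rose by 1.19 ± 0.09. Rarg, the receptor of ES cells, was lower by its main probe (-0.96 ± 0.08), but its probes were called both ways. Of 22 imprinted genes 10 rose and 3 fell, beside the same shares of all genes (5 and 0 of 18 in the stricter fit). Peg3, a zinc finger protein made from the paternal allele, had 0.22 and 0.39 on day 2, 1.02 and 1.25 on day 4, and 2.48 and 2.35 on day 6. The values of its 3 days did not overlap, and its mean was 1.28 ± 0.11 (adjusted p 0.087 with the spread between days). Rian, a maternal non-coding RNA, rose by 1.13 ± 0.08.

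Genes of the FGF and ERK pathway moved both ways, with 9 of 21 rising and 8 falling (4 and 3 of 16 in the stricter fit). The ligand Fgf4 was among the falls and Fgf5 among the rises, and the receptor Fgfr1 rose by 1.36 ± 0.08. Among feedback inhibitors, Spry4 and Spry2 fell by 1.28 ± 0.07 (adjusted p 0.052 with the spread between days) and 1.09 ± 0.08 (0.0574 without the dye term), while Dusp4, a phosphatase that ERK induces, stood at 1.49, 0.05 and 0.85 on days 2, 4 and 6. Myc, a target of several mitogens, stood at 0.32, -0.91 and -0.89. Of 32 cell cycle genes 7 rose and 5 fell, close to the shares of all genes (24.9% and 20.1%), and 2 and 3 of 27 in the stricter fit. Ccnd1, the D-type cyclin, fell by 1.05 ± 0.08, Cdkn1b (p27) averaged 0.71 ± 0.08 on 5 arrays, and Mki67 rose by 0.77 ± 0.10. Mki67 did not pass without the dye term (adjusted p 0.245). In the p53 list 3 of 17 rose and 6 fell (0 and 2 of 16 in the stricter fit), and Cdkn1a (p21) stood at -0.08 ± 0.08 (adjusted p 0.45).

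Sterol and fatty acid genes rose, while glycolysis genes moved about as often as all genes. Of 23 genes of sterol and fatty acid synthesis 14 rose and 1 fell, with a median of 0.40 (9 rose of 20 in the stricter fit). The median was 0.58 after RA and 0.64 after HMBA, so the rise was not particular to DMSO. Scd1, the stearoyl-CoA desaturase, rose by 1.32 ± 0.07, Cyp51, a demethylase of sterol synthesis, by 0.82 ± 0.07, Dhcr7, the last enzyme of cholesterol synthesis, by 0.71 ± 0.07, and Srebf2, the transcription factor of the pathway, by 0.80 ± 0.09. Dhcr7 did not pass with the spread between days (adjusted p 0.052). In glycolysis and hypoxia 5 of 21 rose and 5 fell, with a median of 0.07 (1 rose and 4 fell of 18 in the stricter fit). Pfkp, a phosphofructokinase, fell by 1.92 ± 0.06, and Hk2, a hexokinase, by 1.03 ± 0.09. Between day 6 and day 2, 8 of the 21 were higher and 1 lower, where 6.01% of all genes were higher and 4.84% lower. Slc2a3, a glucose transporter, stood at -1.10 on day 2, 0.50 on day 4 and 1.28 on day 6, and its day 6 minus day 2 difference was 2.38 (adjusted p 1.3e-06).

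Ribosomal protein genes were lower by a small amount. Of 41 measured members 35 fell and none rose, where 20.1% and 24.9% of all genes did, and the median was -0.43. In the stricter fit 25 of 37 fell, and without the dye term 19 of 41. The list was lower after RA and HMBA too, with medians of -0.44 and -0.52 against the same untreated reference. In DMSO 0 members were higher and 2 lower than in RA, and 0 were higher or lower than in HMBA. The part of the shared reference in this fall was not tested. Rps12 had the largest fall, -1.98 ± 0.08, and the next, Rpl13a, Rpl30 and Rpl32, stood at -0.86, -0.81 and -0.65. Many ribosomal protein genes have near-identical pseudogenes that probes may not tell apart. Of 29 respiratory chain genes 12 fell and 1 rose, led by Cox4i1 at -0.70 ± 0.08, and of 29 proteasome genes 10 fell and 3 rose. In the stricter fit 9 of 28 and 4 of 27 of these lists fell. Without the array of day 4 that stands apart 4 proteasome genes fell and 1 rose.

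Stress genes did not rise as a group. Of 23 genes of oxidative stress and detoxification 12 fell and none rose, where 20.1% and 24.9% of all genes did. In the stricter fit 4 of 21 fell, where 13.2% of all genes did, and without the dye term 6 of 23 fell. The median was -0.24 after DMSO, -0.35 after RA and -0.33 after HMBA, so the fall was not particular to DMSO. Gpx4, a lipid peroxide reductase, stood at -1.15 ± 0.09 and Mt1, a metallothionein, at -1.06 ± 0.09 (adjusted p 0.12 with the spread between days). Hmox1 (haem oxygenase) was higher on day 2 at 0.77 (adjusted p 0.00082) and lower on day 6 at -1.44 (adjusted p 2.6e-07). Of 11 chaperone genes 6 fell, led by Hspb1 at -1.36 ± 0.09, and 3 rose (2 and 1 of 10 in the stricter fit). Of 11 genes of osmotic stress 5 fell, led by Sgk1 (a kinase that salt and glucocorticoids induce) at -1.63 ± 0.08, and 2 rose (2 and 1 of 10 in the stricter fit). Of 24 amino acid and endoplasmic reticulum stress genes 5 rose and 10 fell in the mean over days. In the stricter fit 0 rose and 5 fell of 21, and without the dye term 1 and 5 of 24. They showed a peak on day 4, when 12 were higher and 6 lower with a median of 0.45. Of all probes 14% were higher and 11.6% lower on that day. On day 6, 1 was higher and 14 were lower with a median of -0.59, where 16.8% and 14.3% of all probes were. Trib3, a pseudokinase that ATF4 induces, stood at -0.76, 1.38 and -0.71 on days 2, 4 and 6, and Atf4 itself at -0.13, 1.16 and -0.05. On day 4 the 2 arrays of Trib3 gave 0.62 and 2.15, both above all arrays of the other days. Chac1, which degrades glutathione, had 2.33 on the day 4 array that measured it. Day 4 is also the day of the array that stands apart, and its part in these values was not tested.

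More probes passed on later days, when the arrays of a day also correlated better. On day 2, 1710 probes passed (10.3%), on day 4 4264 (25.6%) and on day 6 5174 (31.1%), and 1647 (9.9%) differed between day 6 and day 2. These counts rested on few arrays: with 1 array left out they were 533 to 560, 2324 to 3522, 2411 to 2783 and 632 to 715, and without the dye term 328, 1120, 1705 and 159. Leaving out the day 4 Cy3 array also cut the probes tested from 16640 to 11199, so that a lower count need not be a lower share. Quantile normalization gave 2898 on day 2. Largest among those higher on day 6 was Sprr2i, a cornified envelope protein, with 3.29 and 3.96 on day 6 against -0.31 and 0.28 on day 2. Sprr2b, of the same family, had 2.17 and 2.78 against -0.23 and 0.34, and Defa31, a defensin, 2.77 and 3.03 against -0.66 and 0.06. Both families consist of near-identical genes, so that the member is uncertain. Pik3ip1, an inhibitor of PI3 kinase, had 2.18 and 2.34 on day 6 against -0.87 and -0.65 on day 2, with no overlap between days. Lowest on day 6 relative to day 2 were Trh, Dppa2, Rex2 (a zinc finger gene), Nefh (a neurofilament protein) and Dnmt3b. Nefh had -2.91 and -3.60 on day 6 against -0.20 and -0.89 on day 2, and Rex2 had -2.62 and -3.75 against 0.24 and -1.18. The differences of Id2 and Rex2 did not pass without the dye term (adjusted p 0.273 and 0.118).

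DMSO and RA were compared at the same days, each as a ratio to untreated E14 cells, the common reference per the labels, while the agents and doses differ. Between them 3781 probes differed (22.7%), 1730 higher (10.4%) and 2051 lower (12.3%) in DMSO, and by gene 9.33% were higher and 14.3% lower. The larger side of this split depended on the processing. Quantile normalization gave 1713 higher and 1544 lower, and leaving out the day 4 Cy3 array of DMSO gave 1789 and 1571. The fit without that array tested 11199 probes, against 16640. With the spread between days 360 were higher and 221 lower, over 10763 probes where the spread between arrays gave 1442 and 1498. Pim2 averaged 2.04 after DMSO and -1.96 after RA, a difference of 4.00 (adjusted p 5e-14). Naive genes were lower after DMSO, with Zfp42 at -3.89 in DMSO and -1.79 in RA (difference -2.10, adjusted p 2.7e-10), Dppa5a at -3.68 and -1.22, and Dppa2 at -3.06 and -0.34. Pou5f1 was the reverse, at -0.62 after DMSO and -1.93 after RA (difference 1.31, adjusted p 1.1e-06). Of 27 pluripotency genes 14 were lower and 4 higher in DMSO than in RA.

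Germ line and 2-cell genes were mostly lower in DMSO than in RA. Of 17, 12 were lower and 1 higher in DMSO, and their median was -0.98 after DMSO and 0.13 after RA. Tcstv1 averaged -1.67 after DMSO and 3.41 after RA (difference -5.08, adjusted p 4.7e-15). Stra8, the meiosis gene that RA induces, averaged -0.39 after DMSO and 2.56 after RA. Trophectoderm, imprinted and fibroblast lists also stood lower in DMSO, with medians of 0.08, 0.20 and 0.31, against 1.24, 1.23 and 1.21 after RA, and 13 of 18, 14 of 22 and 15 of 21 members lower by the test. Mest, an imprinted hydrolase, averaged 0.15 after DMSO and 3.68 after RA, and Rhox6, a homeobox gene of placenta and germ cells, -0.31 and 2.95 (adjusted p of the difference 0.134 with the spread between days). On the other side, Malat1, a nuclear non-coding RNA, averaged 0.59 after DMSO and -4.07 after RA, and Ache, acetylcholinesterase, 0.56 and -2.69. The other probes named for Malat1 and Ache lay nearer to 0 after DMSO, so that these 2 genes are uncertain. Il13ra2, a decoy receptor of interleukin 13, averaged 0.43 after DMSO and -2.49 after RA (difference 2.92). Nts, neurotensin, averaged 0.54 and -2.19 (difference 2.73), so that most of both differences lay in RA. Il13ra2 after DMSO did not pass with the spread between days (adjusted p 0.051). Both genes were low in vector cells, at 4.20 and 3.53 (log2 level).

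Between DMSO and HMBA 1608 probes differed (9.66%), 692 higher (4.16%) and 916 lower (5.5%) in DMSO, and by gene 4.82% were higher and 6.54% lower. This count depended on the error used: with the spread between days none passed in limma, and 1021 had an unadjusted p under 0.05. Phlda2, an imprinted gene that limits placental growth, had -0.13 and 0.08 on day 2, -2.13 and -1.29 on day 4, and -1.90 and -2.14 on day 6 of DMSO, and averaged -1.25 after DMSO and 0.98 after HMBA (difference -2.23). Krt8 averaged 1.36 and 3.53, Gsn (gelsolin, which severs actin) 0.17 and 2.36, Peg10 (a retrotransposon-derived gene of the placenta) 0.49 and 2.69, and Id2 0.26 and 2.41. Of 18 trophectoderm genes 14 were lower in DMSO than in HMBA and 1 was higher, with medians of 0.08 and 1.37, and of 24 cytoskeletal genes 12 were lower and none higher. Higher in DMSO were Pim2, Slc27a2 (a fatty acid transporter), Otx2, Lef1 and Foxh1 (a forkhead partner of SMAD proteins in Nodal signals), by 1.91, 1.58, 1.55, 1.42 and 1.38. Of 18 epiblast genes 11 were higher and 2 lower in DMSO than in HMBA. Of 17 germ line and 2-cell genes 1 was higher and 2 were lower, with medians of -0.98 after DMSO and -1.28 after HMBA.

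**Figure D4:**
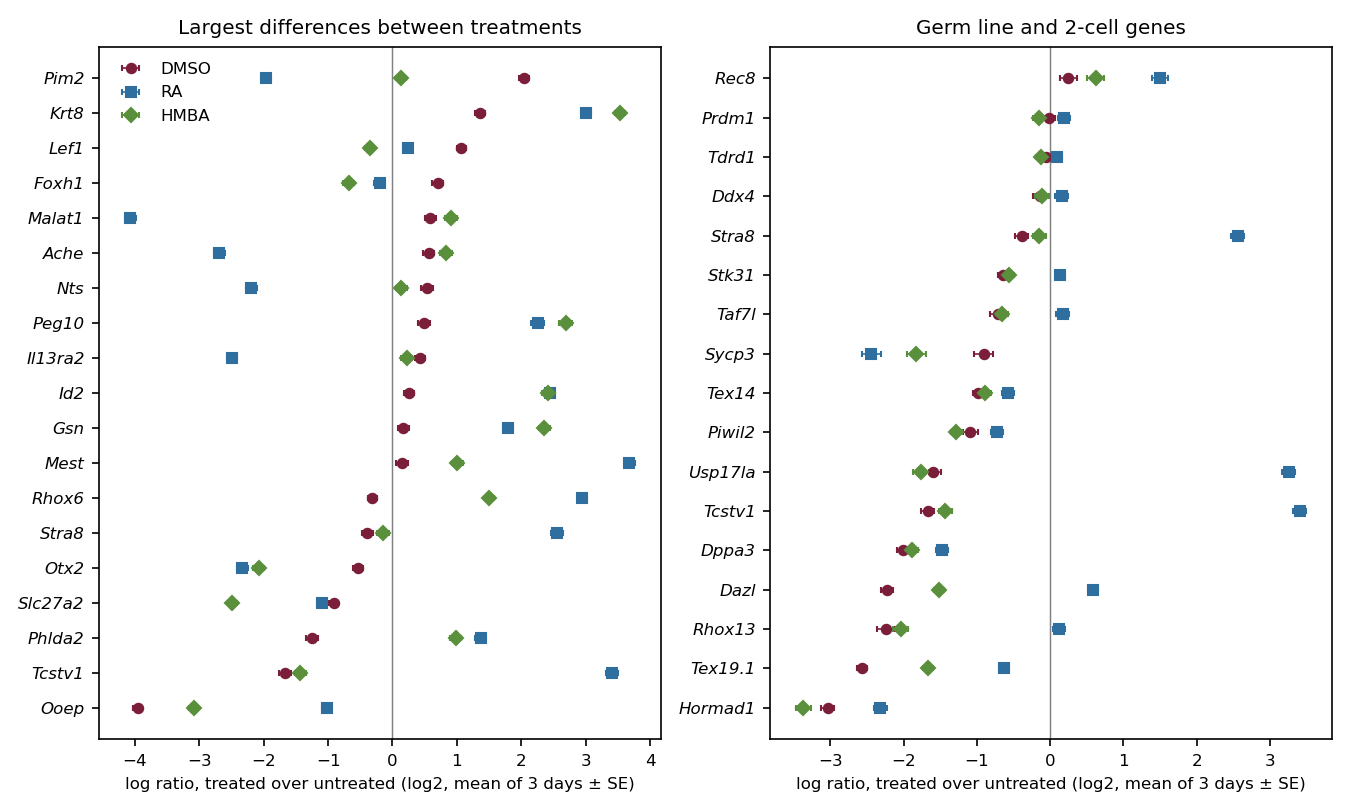
Mean log ratio over 3 days against untreated cells (horizontal axis, log2, ± SE of the fit) after DMSO, RA and HMBA for the genes with the largest differences between treatments (left) and for 17 germ line and 2-cell genes (right). Tcstv1 stands at -1.67 after DMSO, 3.41 after RA and -1.43 after HMBA.

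The RNAi arrays give a second reading of the same genes, on other cells and another platform. The targeted genes fell there, with Pou5f1 at 9.03 ± 0.22 after Pou5f1 RNAi and 11.42 ± 0.09 in vector cells (log2 level, SD), and Nanog RNAi lowered Nanog by 1.81 (adjusted p 2.1e-12). Over all 18193 genes of that platform 20.6% were higher and 19.5% lower after Pou5f1 RNAi, and 12.1% and 8.77% after Nanog RNAi. Over 11030 genes on both platforms, 987 of 2196 genes that fell after DMSO (44.9%) were lower after Pou5f1 RNAi, where 23.2% of all genes were lower, and they made up 38.6% of those lower after the RNAi. Of 2867 that rose, 1248 (43.5%) were higher, where 24.9% of all were. Among 231 genes that fell by at least 1 on the log2 scale, 166 (71.9%) were lower and 29 (12.6%) higher after Pou5f1 RNAi. After Nanog RNAi 366 of the 2196 falling genes (16.7%) were lower and 318 (14.5%) higher, where 11% and 14.8% of all genes were. Of the 231 with larger falls 88 (38.1%) were lower and 38 (16.5%) higher. Across the 11030 genes, which are not independent, the DMSO mean correlated at 0.36 with the Pou5f1 RNAi difference and at 0.14 with that of Nanog RNAi. Trh, Morc1 and Ooep stood at -3.64, -3.20 and -2.35 after Pou5f1 RNAi, and Rhob, Tpm1 and Amotl2 were higher by 4.06, 3.35 and 2.23.

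Some genes had an opposite sign or a value near 0 on the RNAi arrays, and others had the same sign with a larger change. Pim2, higher on all 6 DMSO arrays, was at 5.99 ± 0.03 after Pou5f1 RNAi and 8.42 ± 0.06 in vector cells (log2 level, SD), a difference of -2.43 (adjusted p 7e-16). Dppa2, at -3.06 after DMSO, differed by 0.20 after Pou5f1 RNAi (adjusted p 0.075) and was 0.82 higher after Nanog RNAi (adjusted p 2.1e-07). Otx2 stood at -0.53 after DMSO and -4.47 after Pou5f1 RNAi, and Krt19, a keratin of trophectoderm, at 0.54 and 5.42. Cdx2 stood at 0.13 after DMSO, where it did not pass, and at 2.34 after Pou5f1 RNAi. Uncx was near the lowest levels of the platform in every group, with 3.36 after Pou5f1 RNAi and 3.39 in vector cells, so that these arrays say little of it. Fgfbp1, higher by 1.84 after DMSO, was higher by 2.71 after Pou5f1 RNAi and by 3.78 after Nanog RNAi.

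**Figure D5:**
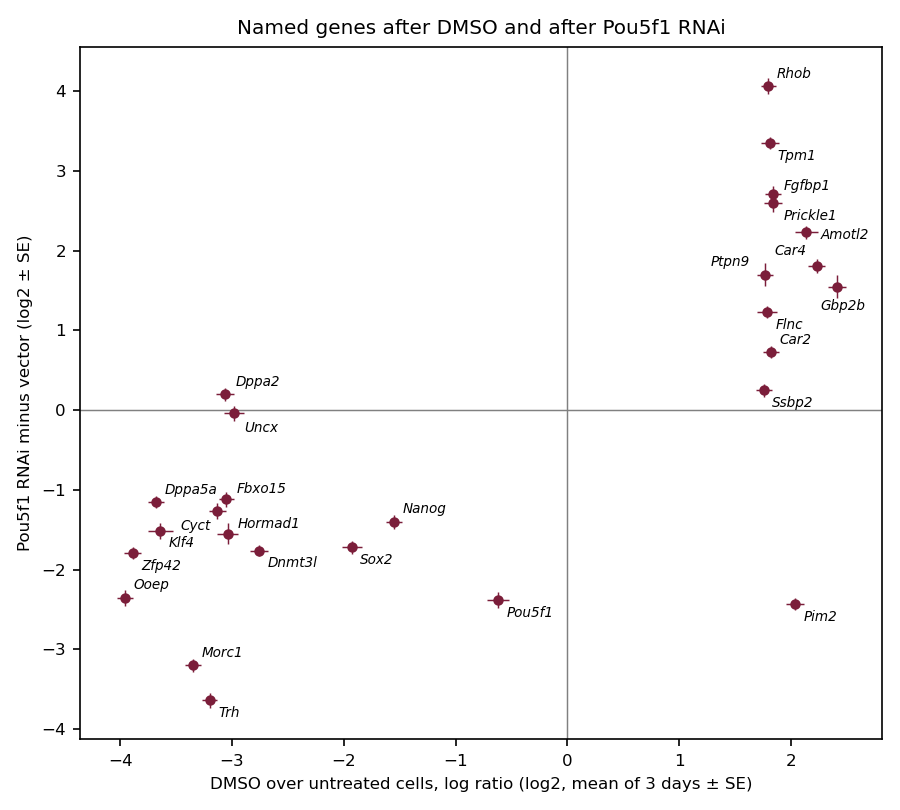
Log2 difference between Pou5f1 RNAi and vector (vertical axis, ± SE) against the log ratio of DMSO over untreated cells (horizontal axis, log2, mean of 3 days ± SE) for the 27 genes named by size of change or as core factors. Pim2 stands alone at lower right (2.04 after DMSO and -2.43 after Pou5f1 RNAi), and Dppa2 and Uncx lie near 0 on the vertical axis.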

How the data were processed

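Two-colour arrays of DMSO, RA and HMBA cultures, and Affymetrix arrays of RNAi and vector cells, were used as deposited. The authors deposited log ratios of sample over untreated cells, turned one way for both dye orientations per the labels, and RMA log2 values for the RNAi arrays per the submitters' processing notes. The ratios' log base (assumed to be 2), background correction and normalization are not given in the sources used here.

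All 18 ratio arrays entered 1 fit (R 4.3.3, limma 3.58.1, lmFit and eBayes) with a mean for each treatment and day and the dye orientation as a term. The dye orientation is the replicate number, so it is the replicate block. Its differences between arrays correlated at 0.47 to 0.91 in 36 of 36 pairs of groups. P-values were adjusted by Benjamini-Hochberg over 16640 probes with a value in every group. Another 17 probes could not be fitted. A list member was measured by its probe with most values over the 18 arrays. Of the tested probes 13380 had 1 gene symbol in the platform's annotation, 87 several and 3173 none. The RNAi arrays (45037 probe sets) were fitted likewise without a block, since same-numbered arrays correlated over 0.1 in 5 of 13 pairs. No column was left unmapped. The number of arrays limits the precision.

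Named genes were Pou5f1, Nanog and Sox2, the 12 largest rises and 12 largest falls with 1 gene symbol (provisional names left out) and 1 sign on all 6 DMSO arrays, by the most changed probe, the 5 largest each way for each difference, and up to 4 called members of each list in order of p. Other list members were chosen after their values were seen. Members, lists and tests were chosen with earlier results of these data known. On simulated data the fit of the DMSO mean recovered 79 of 100 probes changed by 0.5 and 100 of 100 changed by 1 (log2), with 7 false calls, over 16640 probes. Alternatives changed the dye term, the normalization, the probe filter, the error and the arrays. Promoters were read with Python 3.11.15 and figures drawn with matplotlib 3.10.9.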

Additional observations from a re-analysis of the deposited data

Results flagged for a closer look

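Genes whose change against untreated cells differed between treatments were picked out by the test of the difference in limma. Between DMSO and RA 3781 probes differed. The largest positive differences were Malat1 (4.65), Pim2 (4.00), Ache (3.24), Il13ra2 (2.92) and Nts (2.73), and the largest negative ones Tcstv1 (-5.08), Mest (-3.53), Rhox6 (-3.26), Stra8 (-2.95) and Ooep (-2.95), all on the log2 scale. Between DMSO and HMBA 1608 probes differed, with Pim2 (1.91), Slc27a2 (1.58), Otx2 (1.55), Lef1 (1.42) and Foxh1 (1.38) higher in DMSO, and Phlda2 (-2.23), Peg10 (-2.20), Gsn (-2.19), Krt8 (-2.17) and Id2 (-2.15) lower.

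Within DMSO 1647 probes differed between day 6 and day 2. Sprr2i (3.64), Defa31 (3.20), Pik3ip1 (3.02), Id2 (2.50) and Sprr2b (2.43) were higher on day 6, and Trh (-3.88), Dppa2 (-3.10), Rex2 (-2.71), Nefh (-2.71) and Dnmt3b (-2.57) were lower.

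On the RNAi platform a single array stood apart from the rest of its group for a few named genes, by the gap to its nearest neighbour. After Pou5f1 RNAi these were Pim2 at 5.94 and Trh at 6.58 (log2 level), where the group means were 5.99 ± 0.03 and 6.82 ± 0.16 (SD). The gap of Pim2 was thus small in size. After Nanog RNAi they were Amotl2 at 9.38, Flnc at 6.54 and Klf4 at 8.98. In vector cells it was Prickle1 at 4.56. By chance alone about 1 in 20 groups shows such a gap.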

How the results depend on the processing

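Counts of probes past the threshold depended on the dye term and on the error used. With no replicate block (dye orientation left out), 2834 probes passed for the DMSO mean, 328, 1120 and 1705 on days 2, 4 and 6, 159 for day 6 minus day 2, 1031 for DMSO minus RA and 242 for DMSO minus HMBA. With dye-swapped arrays averaged and the spread between days as error, 2866 passed for the mean, 581 for DMSO minus RA (62% higher in DMSO, against 45.8%, and 52.6% under quantile normalization) and 0 for DMSO minus HMBA in limma, where 1021 had an unadjusted p under 0.05. The 2866 were of 10763 probes, of which 5461 passed with the spread between arrays. With DMSO arrays only and the pairs averaged 1977 passed, and without day 6 4556. Quantile normalization between arrays gave 2898 on day 2. Leaving out 1 array at a time lowered the day counts whichever array was left out, and gave 5240 to 5911 for the mean, 533 to 560 on day 2, 2324 to 3522 on day 4 (lowest without the Cy5 array), 2411 to 2783 on day 6, 632 to 715 for day 6 minus day 2, 2938 to 5392 for DMSO minus RA (highest without replicate 2 of RA day 2) and 1021 to 1477 for DMSO minus HMBA. The last was 1021 without the day 6 Cy5 array and 1050 without the day 2 Cy3 array of DMSO, and 1031 and 1043 without the replicate 1 arrays of HMBA on days 4 and 6.

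Of the values of single named genes under the alternatives, 1905 DMSO means and 375 differences kept their direction and side of the threshold, 74 means and 13 differences kept the direction but no longer passed, and 0 turned sign. For RNAi, leaving out 1 array gave 12748 to 14764 probe sets for Pou5f1 and 6160 to 7181 for Nanog. Spread between untreated cultures could not be measured, and signal over background is unknown.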
